A study of Mus musculus with 6 samples.

Results

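The genes described here are 33 mouse genes of cholesterol synthesis, sterol sensing, sterol transport and storage, and sterol efflux. They were taken from a list of sterol genes given by name, with no cut on measured values but with earlier results of these data known, and all 33 were found among the 16840 genes of the count table. Sc4mol is the older symbol of Msmo1 and is used here as the table gives it. All 33 passed the filter on low counts, which left 12340 genes for testing.

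Gene expression was measured by RNA sequencing of cultured alveolar macrophages, which live in the air spaces of the lung. The 6 libraries formed 3 groups of 2, all of wild-type (WT) genotype and all labelled day 2: cells without GM-CSF stimulation, cells with GM-CSF, and cells with GM-CSF to which DON had been added. GM-CSF is the growth factor that alveolar macrophages need to develop and persist, and the labels name DON by these letters only. The groups are separate libraries, so falls, rises and steps described below are differences between groups and not changes over time. The sources used here do not give strain, sex, age or doses. They do not say whether the 2 libraries of a group came from separate cultures or animals, and a p-value then measures the spread between these libraries alone, which may be technical.

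The libraries held between 28321986 and 35196387 counts, with 14892 to 15188 genes detected, and the median standard error (SE) of a log2 fold change was 0.081. The 12 alveolar macrophage markers were all present, with summed levels of 10320 to 10977 CPM (counts scaled to library size) without GM-CSF, 13340 to 13355 with it and 17229 to 17332 after DON was added. Most of that increase was Chi3l3 (mean 1814, 5543 and 7702 CPM). By gene, 7 of the 12 fell with GM-CSF, among them Fabp4 (-1.14) and Cd68 (-0.81), and 3 rose (median log2 fold change -0.32). With DON, 7 rose and 3 fell (median 0.39). Car4 changed most with GM-CSF, from 0.215 and 0.238 CPM to 661 and 652 (log2 fold change 11.5). It stood at 325 and 303 CPM with DON (-1.06). Over all genes tested, 29.3% fell and 27.5% rose with GM-CSF, and 28.8% went each way with DON. Marker sums of other cell types moved between the groups too. The 7 lung epithelial markers found of 8 summed to 17.0 to 20.2, 97.5 to 103 and 27.2 to 27.5 CPM in the same order. Sftpb was at 0 in the GM-CSF libraries and Sftpc at 0 in the DON libraries. Both genes had at most 2 counts in any library and were not tested, so these values of 0 show no difference between groups. Most of the lung epithelial sum was Cdh1 (mean 13.8, 98.0 and 25.6 CPM). Scgb1a1 (-3.05, SE 0.71) and Epcam (-1.45, SE 0.37) instead fell with GM-CSF. Scgb1a1 had 38 and 33 counts without GM-CSF and 0 and 8 with it. The 2 granulocyte markers found of 6 summed to 30.4 to 32.7, 4.26 to 4.93 and 3.84 to 4.86 CPM, and the 6 stromal and endothelial markers to at most 1.88 CPM (Col1a1 at 0 with DON). Their part in the results was not tested. In bulk libraries such as these, fewer cells of a type and less RNA per cell cannot be told apart.

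Cells make cholesterol from acetyl-CoA through mevalonate, farnesyl diphosphate, squalene and lanosterol. When sterols in the endoplasmic reticulum are low, SCAP escorts the precursor of SREBP2 to the Golgi, where proteases release the transcription factor that switches on the synthesis enzymes; when sterols are high, INSIG proteins hold SCAP back. The LXR nuclear receptors work in the other direction: bound by oxysterols or by the intermediate desmosterol, they switch on the exporters ABCA1 and ABCG1 and the ubiquitin ligase MYLIP, which removes lipoprotein receptors. Alveolar macrophages take up and clear surfactant, which is rich in phospholipid and cholesterol, so both arms are of long-standing interest in this cell.

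The 2 arms were compared through a group of 20 SREBP2 pathway genes (the 18 synthesis enzymes, Insig1 and Stard4) and a group of 4 LXR targets (Abca1, Abcg1, Lpcat3 and Mylip). Promoter windows of the members were searched for elements known from sterol and LXR target genes, as a description with no test of a link to the changes. RefSeq windows on GRCm38.p6, from 250 bases before to 50 bases after a start site, were at hand for 27 of the 33 members. The following stretches are examples that hold the searched elements, and each reads 5′ to 3′ on the strand of its gene. The changes of these members ranged from large (Hmgcs1 and Hsd17b7) to small (Mvk) or not called (Abca1). Capitals mark CCAAT boxes (CCAAT, or ATTGG when read on the opposite strand), the sterol regulatory element pattern TCACNCCAC in Hmgcs1, and an LXR response element (half-sites GGTNA and GGTCA with 5 bases between them) in Abca1 and Srebf1, where it lies on the strand opposite to the gene.
Hmgcs1 (chr13:119690166-119690235, plus strand): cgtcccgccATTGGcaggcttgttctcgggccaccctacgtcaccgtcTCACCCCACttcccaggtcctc
Hsd17b7 (chr1:169969265-169969380, minus strand): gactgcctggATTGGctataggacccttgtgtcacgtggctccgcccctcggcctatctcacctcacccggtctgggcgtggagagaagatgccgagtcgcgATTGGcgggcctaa
Mvk (chr5:114444089-114444268, plus strand): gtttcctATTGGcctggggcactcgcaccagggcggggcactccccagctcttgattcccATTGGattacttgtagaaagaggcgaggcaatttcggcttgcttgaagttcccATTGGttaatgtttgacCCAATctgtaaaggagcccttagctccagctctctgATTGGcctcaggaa
Abca1 (chr4:53159931-53159990, minus strand): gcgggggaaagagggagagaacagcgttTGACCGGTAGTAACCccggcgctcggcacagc
Srebf1, an internal start (chr11:60210622-60210681, minus strand): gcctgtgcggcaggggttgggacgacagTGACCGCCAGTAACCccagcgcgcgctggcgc

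Both strands were searched for each pattern. CCAAT is the box bound by NF-Y, a partner of SREBP2 at many sterol genes. It was found in windows of 22 of the 27 members (81.5%), against 41.1% of the 27025 genes with a window. Those 27025 genes, called all genes in this paragraph, were not limited to the genes tested for expression. They were not matched to the members for expression or for number of windows (32851 windows, against 36 for the 27 members). Among the 16 SREBP2 pathway genes with a window, CCAAT was found in 15 (93.8%), Acat2 being the exception. It was found in 2 of the 3 LXR targets with a window. Mvk carried 5 such boxes within its window. The pattern TCACNCCAC was found in 1 of the 27 members, Hmgcs1, 137 bases before its start, and in 1.44% of all genes. With 1 more base left free (TCACNCNAC), which takes in every match of the stricter pattern, it was found in 2 of the 27, the second being Nsdhl, and in 3.15% of all genes. The LXR element, GGTNA and GGTCA with 5 free bases between them, was found in Abca1, 67 bases before its start, and Srebf1, against 0.226% of all genes. With the half-sites exchanged (GGTCA first, then GGTNA), 0.292% of all genes matched and no member did. A match describes these letters in this window and is neither a shown binding site nor a cause.

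GM-CSF was followed by lower transcripts of most sterol synthesis genes. Of the 33 members, 28 were lower with GM-CSF than without, 2 were higher (Ebp and Abcg1) and 3 were not called (Mvd, Insig2 and Abca1) at an adjusted p under 0.05 in edgeR's quasi-likelihood test. Over all 12340 genes, 56.8% were called in this comparison, 29.3% as lower and 27.5% as higher. A fall of at least 2-fold was called in 12 of the 33 members and in 6.67% of all genes. The median log2 fold change of the members was -0.74, and that of all genes was -0.02. The libraries of the groups did not overlap for 30 members, and for 78.7% of all genes.

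Adding DON to GM-CSF was followed by a further fall of many synthesis genes and a rise of several export and storage genes. Of the 33 members, 17 were lower with DON than with GM-CSF alone, 8 were higher and 8 were not called, where 57.6% of all genes were called, 28.8% in each direction. A fall of at least 2-fold was called in 2 members, Idi1 and Stard4, and in 4.25% of all genes. The members' median log2 fold change was -0.24, beside 0.01 for all genes. Groups did not overlap for 27 members and for 79.4% of all genes. This comparison shares the GM-CSF libraries with the first one. In the 2 comparisons in turn, 16 members were lower and lower again, 7 were lower and then higher, 5 were lower and then not called, Ebp was higher and then lower, Abcg1 was higher in both, and 3 were called in neither.

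**Figure D1:**
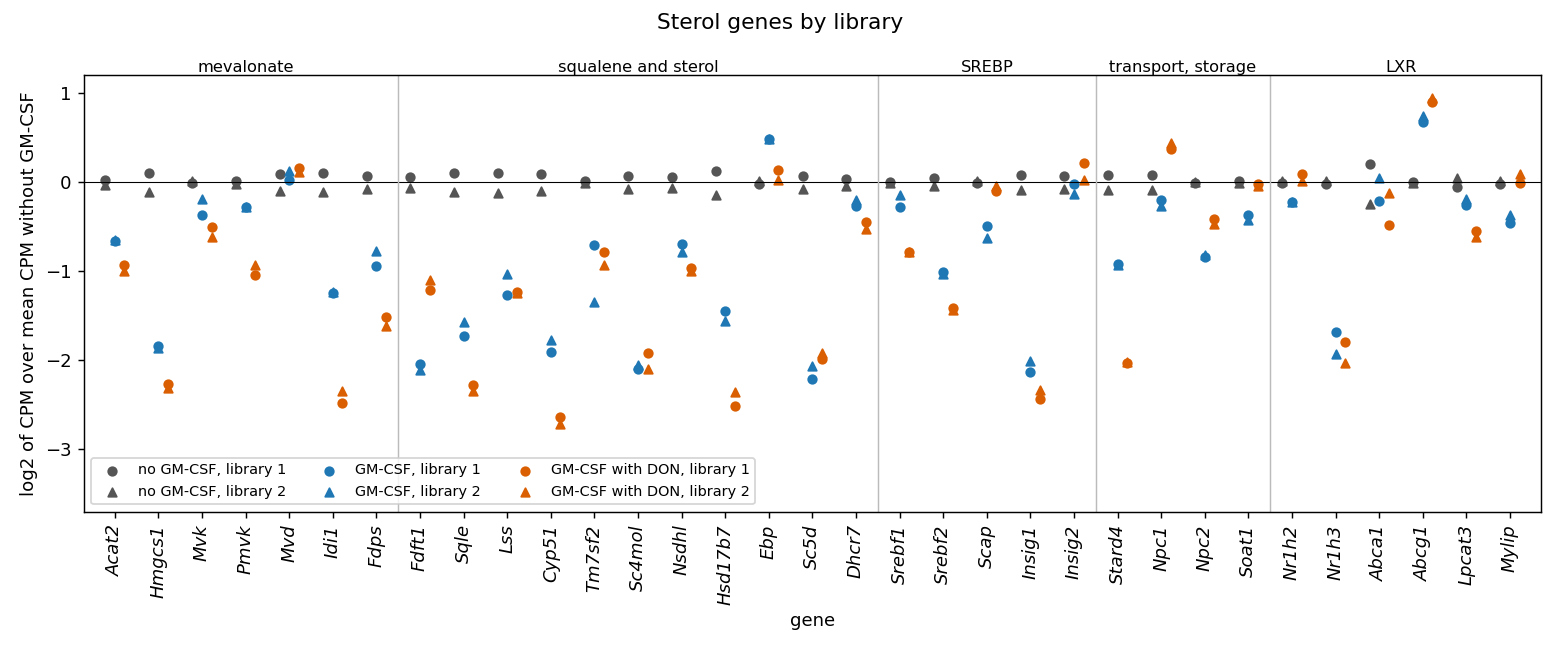
Level of each of the 33 genes in each library, as the log2 ratio of its CPM to the mean CPM of the libraries without GM-CSF (0 on the vertical axis); colours stand for groups and shapes for the 2 libraries of a group. Most synthesis genes lie below 0 with GM-CSF, while Ebp and Abcg1 lie above it, and the libraries of Abca1 scatter across groups.

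The mevalonate steps fell unevenly. Of the 7 enzymes, 6 fell with GM-CSF and the same number fell with DON, with median log2 fold changes of -0.65 and -0.44. Of all genes, 29.3% fell with GM-CSF and 28.8% with DON. Hmgcs1, which makes HMG-CoA and whose promoter holds the sterol element shown above (gene at chr13:119690379-119708260, GRCm38), stood at 210 and 181 CPM without GM-CSF, 54.6 and 54.0 with it, and 40.6 and 39.5 with DON. The groups were clearly apart, with the large step at GM-CSF. Hmgcs1 fell by 1.85 ± 0.07 on the log2 scale (± SE throughout) with GM-CSF (edgeR adjusted p = 1.38e-08) and by a further 0.44 ± 0.07 with DON (adjusted p = 0.000508).

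Idi1, the isomerase that turns isopentenyl diphosphate into its reactive partner (chr13:8885501-8892451), had 111 and 95.6 CPM without GM-CSF, 43.6 and 43.9 with it, and 18.5 and 20.3 with DON. Its groups were ordered without overlap, and its steps were of similar size. Idi1 fell by 1.24 ± 0.07 with GM-CSF (edgeR adjusted p = 3.87e-07) and by 1.17 ± 0.08 with DON (adjusted p = 1.81e-06). Fdps, which builds farnesyl diphosphate, went from 80.8 and 73.2 CPM to 40.2 and 45.2 with GM-CSF and 27.0 and 25.1 with DON. Fdps was thus lowest in both DON libraries, with log2 fold changes of -0.85 ± 0.07 (edgeR adjusted p = 5.03e-06) and -0.71 ± 0.08 (adjusted p = 3.45e-05).

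The thiolase and the mevalonate kinases moved less with GM-CSF. Acat2, here the cytosolic thiolase that joins acetyl-CoA units, had 19.7 and 18.9, then 12.2 and 12.4, then 10.1 and 9.68 CPM, a fall of 0.65 ± 0.08 and then of 0.31 ± 0.08 (edgeR adjusted p = 4.66e-05 and 0.00877). Pmvk, the kinase that adds the last phosphate to mevalonate, had 16.7 and 16.3, then 13.6 in both, then 8.04 and 8.66 CPM, and its larger step came with DON (-0.70 ± 0.08, edgeR adjusted p = 6.46e-05, against -0.28 ± 0.08, adjusted p = 0.0115, with GM-CSF). The difference between its steps was not tested. Mvk, the first mevalonate kinase and the gene with 5 CCAAT boxes, had 15.3 and 15.5, then 11.9 and 13.5, then 10.8 and 10.01 CPM. Its groups did not overlap, but its falls of 0.27 ± 0.09 and 0.29 ± 0.09 (edgeR adjusted p = 0.0238 and 0.0233) were near the threshold, and DESeq2 called neither (adjusted p = 0.109 and 0.0725). DESeq2 also left the GM-CSF step of Pmvk uncalled (adjusted p = 0.0844).

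Mvd, the decarboxylase between Pmvk and Idi1, stood apart from its neighbours in the pathway. Its CPM was 83.7 and 73.8 without GM-CSF, 80.4 and 86.3 with it, and 88.1 and 85.5 with DON. The GM-CSF libraries overlapped those on either side, and the log2 fold changes were 0.08 ± 0.07 (edgeR adjusted p = 0.321) and 0.06 ± 0.07 (adjusted p = 0.466). Without the first library lacking GM-CSF, Mvd passed the threshold as higher with GM-CSF (0.17, adjusted p = 0.046), and it did so too when libraries were scaled by total counts (0.20, adjusted p = 0.0190).

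The 11 squalene and sterol enzymes included some of the largest falls with GM-CSF: 10 fell and Ebp rose, with a median log2 fold change of -1.49. With DON, 6 fell, Fdft1 rose and 4 were not called, with a median of -0.24. Of all genes, 29.3% fell and 27.5% rose with GM-CSF. With DON, 57.6% of all genes were called, 28.8% in each direction, so the number of these enzymes called with DON is near that share. Sqle, which epoxidises squalene and is a control point of the pathway, had 104 and 89.4 CPM without GM-CSF, 29.1 and 32.5 with it, and 19.9 and 19.0 with DON. Cyp51, which strips a methyl group from lanosterol (chr5:4081145-4104746), had 161 and 141, then 40.2 and 44.0, then 24.3 and 22.9 CPM. Hsd17b7, a ketoreductase of the demethylation steps, had 26.4 and 21.9, then 8.89 and 8.23, then 4.23 and 4.70 CPM. Each of these 3 genes fell at both steps with no overlap of libraries. The log2 fold changes were -1.65 ± 0.08 and -0.66 ± 0.09 for Sqle (edgeR adjusted p = 9.45e-08 and 0.000139), -1.84 ± 0.07 and -0.83 ± 0.08 for Cyp51 (adjusted p = 2.1e-08 and 1.32e-05), and -1.49 ± 0.11 and -0.94 ± 0.13 for Hsd17b7 (adjusted p = 1.51e-06 and 0.000179).

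Sc4mol and Sc5d fell as steeply with GM-CSF but showed no called change with DON. Sc4mol, the methyl oxidase that acts after Cyp51, had 172 and 156 CPM without GM-CSF, 38.3 and 39.3 with it, and 43.4 and 38.1 with DON. Its DON libraries lay around those with GM-CSF alone, with log2 fold changes of -2.08 ± 0.07 for GM-CSF (edgeR adjusted p = 8.14e-09) and 0.07 ± 0.07 for DON (adjusted p = 0.438). Sc5d, a late desaturase (chr9:42251595-42264256), had 55.8 and 50.6, then 11.5 and 12.7, then 13.5 and 14.0 CPM. It showed the largest fall of the 33 genes with GM-CSF, 4.39-fold (log2 -2.14 ± 0.08, edgeR adjusted p = 1.18e-08). Its DON libraries were both slightly above those with GM-CSF, a difference of 0.18 ± 0.09 that was not called (adjusted p = 0.0943).

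Lss, which closes squalene epoxide into lanosterol, likewise moved with GM-CSF alone among the calls: 47.7 and 40.8, then 18.3 and 21.6, then 18.8 and 18.6 CPM. Its DON libraries lay between those with GM-CSF, and its log2 fold changes were -1.15 ± 0.09 (edgeR adjusted p = 3.6e-06) and -0.09 ± 0.10 (adjusted p = 0.474). Tm7sf2, a sterol reductase, had few counts, with 7.10 and 7.01, then 4.34 and 2.79, then 4.09 and 3.72 CPM. Its GM-CSF libraries were far apart, which gives it the widest error of the set: -0.97 ± 0.18 with GM-CSF (edgeR adjusted p = 0.00112) and 0.12 ± 0.20 with DON (adjusted p = 0.635).

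Nsdhl, the dehydrogenase that works between Sc4mol and Hsd17b7, had 37.1 and 33.9, then 21.9 and 20.7, then 18.2 and 17.8 CPM. It fell at both steps, by 0.74 ± 0.07 and 0.24 ± 0.07 (edgeR adjusted p = 1.04e-05 and 0.0173). Its DON step was lost without the first GM-CSF library or the second DON library (adjusted p = 0.104 and 0.0890). Dhcr7, the reductase of the last step to cholesterol, had 139 and 132, then 113 and 118, then 99.8 and 94.5 CPM, and fell only slightly, by 0.23 ± 0.05 and 0.25 ± 0.05 (edgeR adjusted p = 0.0035 and 0.00215). The fall of Dhcr7 with GM-CSF was not called after scaling by total counts. It was also not called by limma on FPKM, a scale that also divides by length. The limma adjusted p was 0.0602 on log2(FPKM + 1) and 0.0595 on log2(FPKM + 0.1).

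Ebp went against the other sterol enzymes with GM-CSF, and Fdft1 went against the others called with DON. Ebp, the isomerase that shifts a double bond in the sterol ring and also binds emopamil, had 53.3 and 54.8 CPM without GM-CSF, 75.9 and 75.5 with it, and 59.6 and 55.1 with DON. Both GM-CSF libraries were above the other 4. Ebp rose by 0.49 ± 0.05 with GM-CSF (edgeR adjusted p = 3.24e-05) and fell by 0.40 ± 0.05 with DON (adjusted p = 0.000131). Fdft1, squalene synthase, which commits farnesyl diphosphate to sterols (chr14:63145150-63179578), had 53.7 and 49.3, then 12.5 and 11.95, then 22.3 and 24.0 CPM. The DON libraries sat between the other groups. Fdft1 fell by 2.07 ± 0.07 with GM-CSF (edgeR adjusted p = 1e-08) and rose by 0.92 ± 0.08 with DON (adjusted p = 5.75e-06).

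In the GENCODE M21 annotation, 774 of the 4227 exon bases of Fdft1 (18.3%) lie over exons of Ctsb, the lysosomal protease cathepsin B, on the opposite strand. Ctsb was far more abundant and moved in the same directions, with 10843 and 10967 CPM without GM-CSF, 5700 and 6157 with it, and 9567 and 9137 with DON. Its log2 fold changes were -0.88 ± 0.04 and 0.66 ± 0.04, both called (edgeR adjusted p = 7.41e-08 and 9.21e-07). Whether the authors counted by strand is not given in the sources used here, so reads of the shared bases cannot be assigned, and the part of Ctsb in the values of Fdft1 was not tested. Other members share exon bases with a neighbour as well: Fdps 26.7% with Gm43738, Scap 13.2% with 5830462I19Rik, Hmgcs1 12.1% with Gm48342, Tm7sf2 12.1% with Vps51, Lpcat3 10.2% with Emg1 and Idi1 9.22% with Gm48574.

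**Figure D2:**
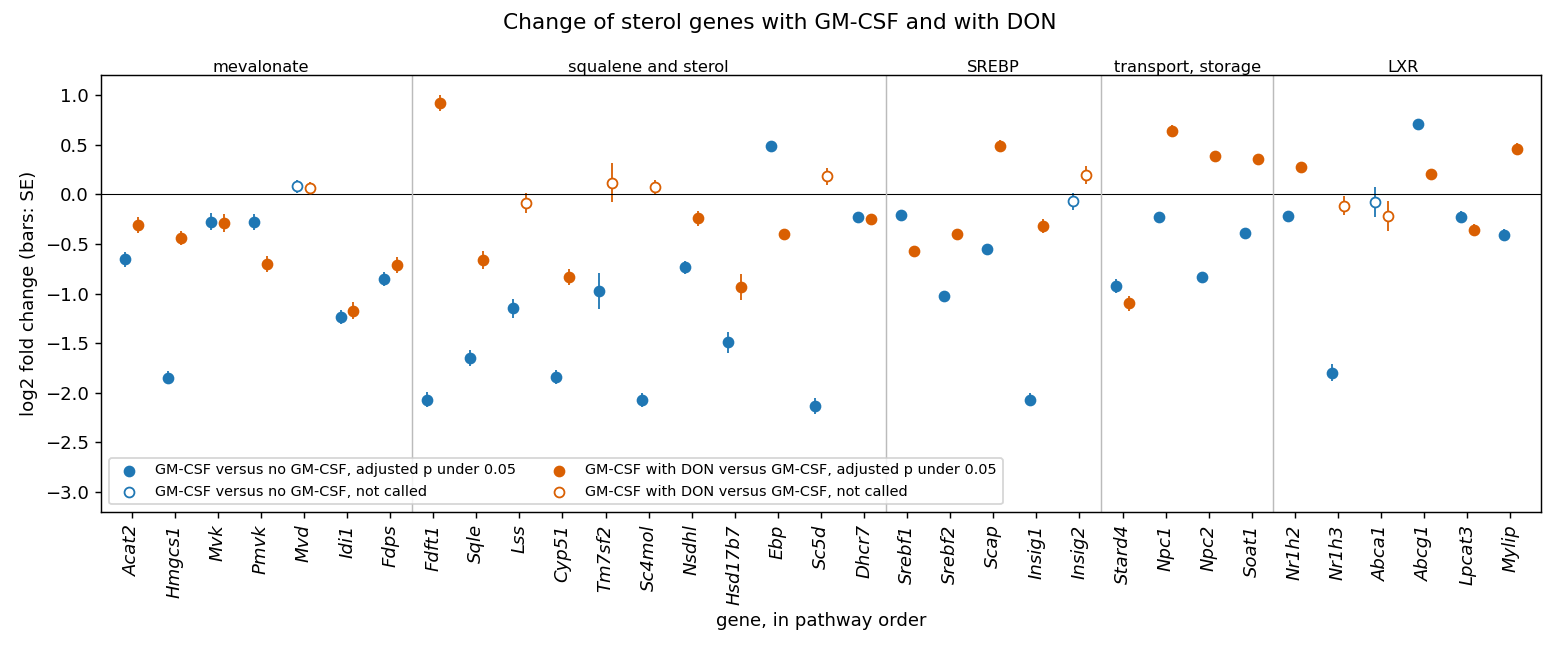
Log2 fold change of each gene with its SE, in pathway order, for GM-CSF versus no GM-CSF and for GM-CSF with DON versus GM-CSF; filled points passed an adjusted p of 0.05 and open points did not. Idi1 and Stard4 show falls of similar size in both comparisons, while Fdft1, Scap, Npc1, Npc2, Soat1, Nr1h2 and Mylip fall and then rise. With total-count scaling the small falls with GM-CSF of Dhcr7, Lpcat3, Mvk, Npc1, Nr1h2, Pmvk and Srebf1 were not called, and the uncalled differences of Abca1 and Insig2 with GM-CSF changed sign.

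Among the SREBP regulators, Insig1 and Srebf2 fell most with GM-CSF, and Srebf1 fell most with DON. Srebf2, which encodes SREBP2 and is also one of its targets (chr15:82147181-82205379), had 257 and 241 CPM without GM-CSF, 124 and 122 with it, and 93.7 and 92.4 with DON. Libraries of a group lay close together and the groups did not overlap. Srebf2 fell by 1.02 ± 0.05 with GM-CSF (edgeR adjusted p = 5.76e-08) and by 0.40 ± 0.05 with DON (adjusted p = 6.11e-05). Insig1, the sterol-sensing anchor of SCAP and a sensitive SREBP target (chr5:28071363-28078662), had 381 and 341, then 82.4 and 89.5, then 66.5 and 71.4 CPM. Its fall of 2.07 ± 0.07 with GM-CSF (edgeR adjusted p = 5.57e-09) was among the largest of the set, and DON was followed by a further 0.32 ± 0.07 (adjusted p = 0.00258).

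Insig2, the second anchor, whose transcript is not driven by SREBP2 in the same way, had 19.2 and 17.2, then 17.9 and 16.7, then 21.1 and 18.5 CPM. Its groups overlapped with and without GM-CSF, and neither difference was called (-0.07 ± 0.09, edgeR adjusted p = 0.529, and 0.19 ± 0.09, adjusted p = 0.0925). On the FPKM scale, which also divides by length, Insig2 stood at 12.5 ± 2.26, 10.3 ± 2.35 and 8.44 ± 1.46 (SD, n = 2), and its DON difference changed sign there; counts and FPKM of this gene disagreed by an SD of 25.4% across libraries, the largest of the 33.

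Srebf1, which encodes the SREBP1 forms and is itself an LXR target, had 126 in both libraries without GM-CSF, 104 and 114 with it, and 73.3 and 73.2 with DON. Its larger step came with DON (-0.57 ± 0.05, edgeR adjusted p = 1.36e-05, after -0.21 ± 0.05, adjusted p = 0.00704), though the difference between steps was not tested. Scap, the escort, had 66.4 and 67.6, then 47.8 and 43.3, then 62.7 and 65.3 CPM, so that it fell with GM-CSF and stood close to its unstimulated level with DON. Its log2 fold changes were -0.56 ± 0.06 (edgeR adjusted p = 2.45e-05) and 0.49 ± 0.06 (adjusted p = 6.8e-05).

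The transport and storage genes divided into Stard4 and the rest. Stard4, a soluble sterol carrier and an SREBP2 target, had 48.8 and 43.6 CPM without GM-CSF, 24.4 and 24.2 with it, and 11.3 and 11.4 with DON. Each step lowered it by about the same amount, 0.93 ± 0.07 and 1.10 ± 0.08 (edgeR adjusted p = 1.71e-06 and 1.86e-06). Npc1, the membrane protein that moves cholesterol out of lysosomes, had 458 and 406, then 376 and 360, then 562 and 588 CPM, so that the DON libraries were above all others. Npc2, its soluble partner in the lysosome, had 1003 and 1010, then 564 and 570, then 756 and 725 CPM, with the DON libraries between the other groups. Soat1, which esterifies cholesterol for storage in droplets, had 571 and 564, then 440 and 424, then 560 and 549 CPM, so that the DON libraries came close to those without GM-CSF.

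These 3 genes fell with GM-CSF, by 0.23 ± 0.06 for Npc1, 0.83 ± 0.04 for Npc2 and 0.39 ± 0.04 for Soat1 (edgeR adjusted p = 0.00643, 5.16e-08 and 1.33e-05). They rose with DON, by 0.64 ± 0.06, 0.39 ± 0.04 and 0.36 ± 0.04 in that order (edgeR adjusted p = 9.04e-06, 1.44e-05 and 2.8e-05). The fall of Npc1 was not called after scaling by total counts.

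The LXR arm showed no common direction. Nr1h3 encodes LXR alpha, the receptor form rich in macrophages and liver (chr2:91184061-91202834), and had 105 and 107 CPM without GM-CSF, 33.1 and 27.8 with it, and 30.6 and 26.0 with DON. It fell by 1.80 ± 0.09 with GM-CSF (edgeR adjusted p = 9.49e-08), while the DON and GM-CSF libraries overlapped (-0.11 ± 0.09, adjusted p = 0.334). Nr1h2, the widely expressed LXR beta, had 87.7 and 88.7, then 75.8 and 75.5, then 93.9 and 89.4 CPM. Its changes were small, -0.22 ± 0.05 and 0.28 ± 0.05 (edgeR adjusted p = 0.00274 and 0.000688).

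Abcg1, the exporter of cholesterol to mature HDL particles (chr17:31057675-31117988), had 639 and 632 CPM without GM-CSF, 1019 and 1066 with it, and 1184 and 1225 with DON. It was the only one of the 33 that rose at both steps, by 0.71 ± 0.04 and 0.21 ± 0.04 (edgeR adjusted p = 2.01e-07 and 0.00105). Abca1, the exporter to lipid-poor apolipoprotein and the gene with the LXR pattern shown above (chr4:53030787-53159895), had 159 and 116, then 119 and 143, then 98.5 and 127 CPM. Libraries of the same group lay far apart, all 3 groups overlapped, and neither difference was called (-0.08 ± 0.15, edgeR adjusted p = 0.693, and -0.21 ± 0.15, adjusted p = 0.249). Abca1 and Abcg1 are both classical LXR targets, and in the same libraries they gave these different values.

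Lpcat3, an acyltransferase that loads polyunsaturated chains onto phospholipids, had 141 and 151, then 122 and 128, then 100 and 95.4 CPM. It fell at both steps, by 0.22 ± 0.05 and 0.36 ± 0.05 (edgeR adjusted p = 0.00474 and 0.000281), while its overlapping neighbour Emg1 rose by 0.33 and fell by 0.37. Mylip had 35.2 and 36.2, then 26.0 and 27.8, then 35.6 and 38.2 CPM, a fall of 0.41 ± 0.06 and then a rise of 0.46 ± 0.06 (edgeR adjusted p = 0.000343 and 0.000173).

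**Figure D3:**
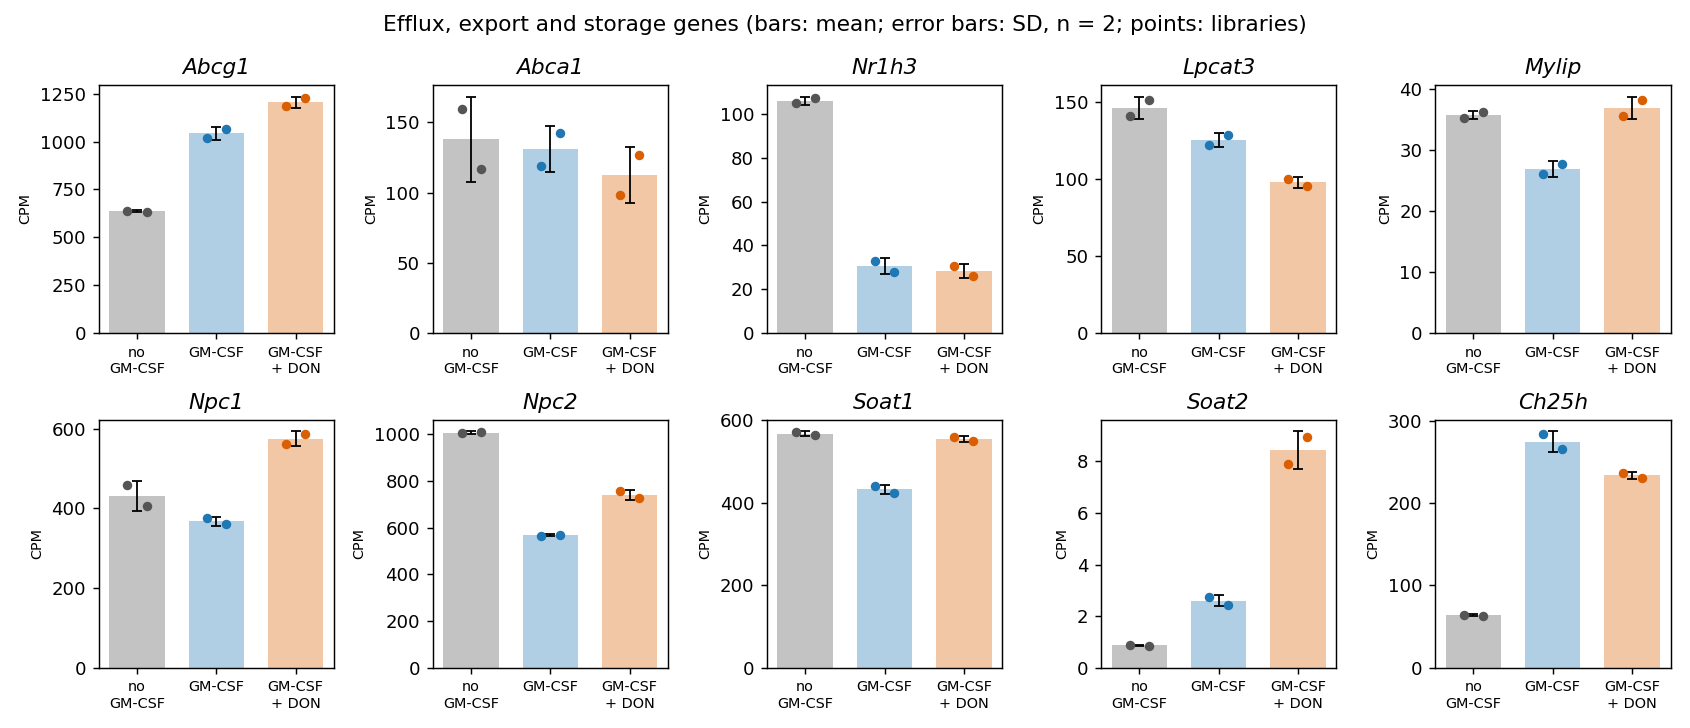
CPM of 10 efflux, export, storage and oxysterol genes in the 3 groups, with bars at the mean, error bars showing the SD (n = 2) and a point for each library. Abcg1 climbs over the groups, Nr1h3 is low in both GM-CSF groups, Npc1, Npc2, Soat1 and Mylip are lowest with GM-CSF alone, and Abca1 overlaps throughout.

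Set side by side, the mean of the 20 SREBP2 pathway genes was lower with GM-CSF, and lower again with DON. The mean of the 4 LXR targets showed no such step, with Abcg1 rising and Lpcat3 falling. The mean log2(CPM + 0.1) of the 20 SREBP2 pathway genes was 5.90 and 5.77 without GM-CSF, 4.73 and 4.75 with it, and 4.40 and 4.38 with DON. Of these 20 genes, 18 fell and 1 rose with GM-CSF (median log2 fold change -1.06), and 14 fell and 1 rose with DON (median -0.31). In the 4 LXR targets the same mean was 7.23 and 7.15, then 7.13 and 7.26, then 7.16 and 7.27. Of these 4, 2 fell and 1 rose with GM-CSF (median -0.15), and 1 fell and 2 rose with DON (median -0.00). Over all genes the shares were 29.3% lower and 27.5% higher with GM-CSF and 28.8% each way with DON, and with 4 genes these counts show nothing particular to the list. Other LXR targets did not stay level: Srebf1 fell at both steps, and of 9 LXR partners and further targets 6 fell with GM-CSF (median -0.76). Over all genes tested the group means were 4.033, 4.001 and 4.021. The SREBP2 mean minus the LXR mean went from -1.33 and -1.38 to -2.40 and -2.50 and then to -2.76 and -2.89, without overlap between groups. These means describe lists chosen with results known, and carry no test.

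**Figure D4:**
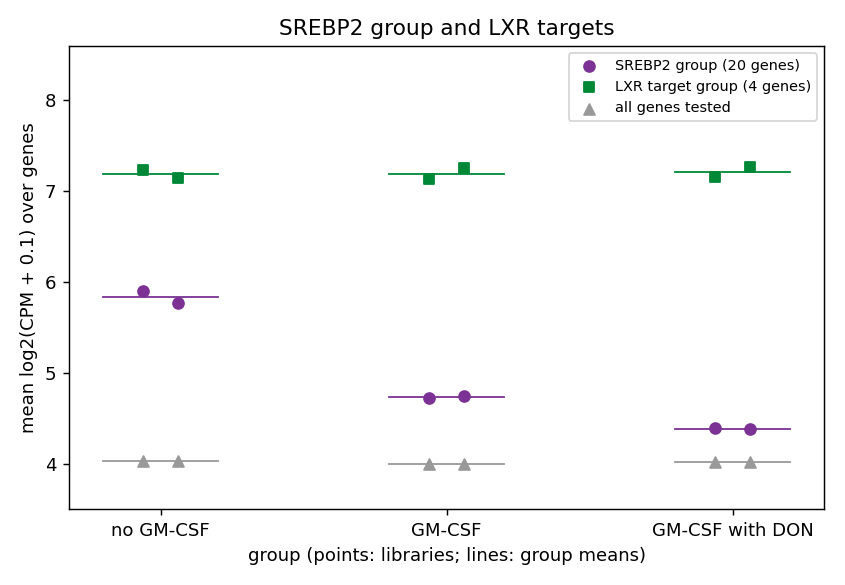
Mean log2(CPM + 0.1) per library over the 20 SREBP2 pathway genes, the 4 LXR targets and all 12340 genes tested, with lines at the group means. The SREBP2 points step down from 5.83 to 4.74 to 4.39, while the LXR points stay between 7.13 and 7.27 and the points of all genes near 4.

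The third comparison set the DON libraries against those without GM-CSF. It shares its libraries with the first 2 and shows the sum of both steps. Of the 33 members, 23 were lower, 2 were higher (Abcg1 and Npc1) and 8 were not called, where 55.6% of all genes were called, 28.4% as lower and 27.2% as higher. A fall of at least 2-fold was called in 14 members and in 6.45% of all genes, and the median log2 fold change was -0.96 beside 0.01 for all genes. Groups did not overlap for 30 members and for 77.6% of all genes. The largest falls were those of Cyp51, 6.40-fold (log2 -2.68 ± 0.08, edgeR adjusted p = 2.73e-09), Hsd17b7, 5.39-fold (-2.43 ± 0.12, adjusted p = 9.53e-08), and Idi1, 5.31-fold (-2.41 ± 0.08, adjusted p = 6.87e-09). Insig1 (-2.39 ± 0.07), Sqle (-2.31 ± 0.09), Hmgcs1 (-2.29 ± 0.07) and Stard4 (-2.03 ± 0.07) followed (edgeR adjusted p = 2.56e-09, 1.3e-08, 4.42e-09 and 1.3e-08).

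Several members ended near their unstimulated level, with differences that were not called: Scap at -0.07 ± 0.06, Soat1 at -0.03 ± 0.04, Nr1h2 at 0.05 ± 0.05, Mylip at 0.05 ± 0.06 and Ebp at 0.08 ± 0.05. Abcg1 rose by 0.92 ± 0.04 (edgeR adjusted p = 3.24e-08) and Npc1 by 0.41 ± 0.06 (adjusted p = 0.000175). Abca1, at -0.29 ± 0.15 (adjusted p = 0.128), was called lower once the second library without GM-CSF was left out (-0.50, adjusted p = 0.00238). Scaling by total counts raised the number of members called higher from 2 to 5, adding Ebp, Mvd and Nr1h2, and turned the uncalled differences of Scap and Soat1 positive, whereas limma on log2(FPKM + 1) called Scap lower (-0.15, adjusted p = 0.0474). That scaling moved the median of all genes from -0.02 to 0.10 with GM-CSF, and the split of all calls there from 3393 higher and 3621 lower to 4587 and 2689; in the third comparison the median went from 0.01 to 0.11 and the split from 3353 and 3506 to 4408 and 2745.

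Per length, and averaged over all 6 libraries, the most abundant transcripts of the set were those of Abcg1, Npc2, Soat1 and Npc1. These genes serve efflux, lysosomal export and storage, and they were not the most abundant in every group. Abca1, the other exporter, was not among them. In mean FPKM (fragments scaled to gene length and library size) over the 6 libraries, Abcg1 came first at 280.8, then Npc2 at 250.8, Soat1 at 112.6, Npc1 at 93.8 and Insig1 at 69.9, and Tm7sf2 (4.71) and Hsd17b7 (3.24) came last. Without GM-CSF, Insig1 (147 ± 11.8) stood above Soat1 (123 ± 1.45), and Sc4mol (106 ± 6.27) above Npc1 (87.1 ± 6.83). Insig1 went from 147 ± 11.8 FPKM without GM-CSF to 35.1 ± 2.07 with it and 27.9 ± 1.36 with DON (SD, n = 2). Abcg1 went the other way, from 186 ± 1.91 to 306 ± 9.79 and 350 ± 8.21. The 18 synthesis enzymes summed to 634 ± 45.2, 342 ± 10.7 and 279 ± 9.49 FPKM, and to 0.126 ± 0.00853%, 0.0665 ± 0.00198% and 0.0530 ± 0.000890% of the counts of a library.

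**Figure D5:**
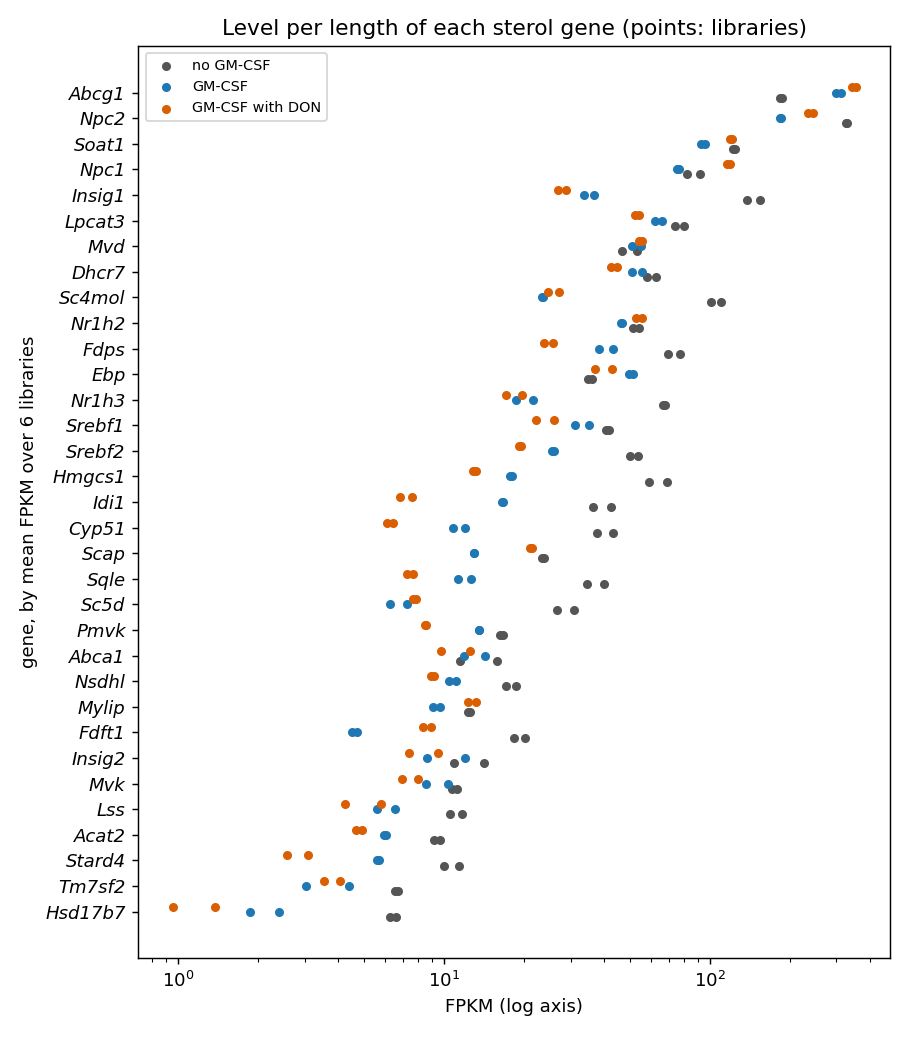
FPKM of each gene in each library on a log axis, with genes ordered by their mean over the 6 libraries and colours for the groups. Abcg1 and Npc2 lie at the top, Hsd17b7 at the bottom, and the dark points without GM-CSF lie to the right of the others for most synthesis enzymes.

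Genes next to the pathway were counted from further lists; where their log2 fold changes stand without an SE, it was between 0.03 and 0.08. Their counts are to be read against the shares of all genes called: 27.5% higher and 29.3% lower with GM-CSF, 28.8% each way with DON, and 28.4% lower in the third comparison. Of 11 genes of the isoprenoid branches, which use farnesyl diphosphate for ubiquinone, dolichol and protein prenylation, 5 rose with GM-CSF and the others were not called (median 0.21), while 6 fell and 1 rose with DON (median -0.25). Pdss1, which builds the ubiquinone tail, had 5.17 and 5.29, then 10.5 and 9.57, then 5.49 and 4.02 CPM, so that only GM-CSF alone was high (0.94 ± 0.14 and -1.09 ± 0.14, both called). Dhdds and Nus1, the subunits of the dolichol chain synthase, moved the same way on a smaller scale, by 0.30 and 0.21 with GM-CSF and by -0.25 and -0.27 with DON. Fnta, a prenyltransferase subunit, differed by 0.11 with GM-CSF, which was not called (edgeR adjusted p = 0.102), and fell by 0.37 with DON. The falling SREBP2 genes upstream and this list thus had different counts with GM-CSF; the difference between lists was not tested.

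Of 16 further SREBP targets outside cholesterol synthesis, mostly of fatty acid synthesis, 4 rose and 6 fell with GM-CSF (median -0.10), shares near those of all genes, 2 rose and 9 fell with DON (median -0.53), and 14 fell in the third comparison (median -0.55). Scd2, a fatty acid desaturase, had 327 and 308, then 268 and 337, then 51.5 and 50.8 CPM. It was low in the DON libraries only, with log2 fold changes of -0.07 ± 0.09 (edgeR adjusted p = 0.501) and -2.56 ± 0.10. Fads1, which makes polyunsaturated chains, had 55.8 and 55.3, then 35.7 and 38.1, then 20.5 and 20.9 CPM, log2 fold changes of -0.59 and -0.84 that were both called. Aldoc, a glycolytic aldolase, had 171 and 164, then 51.2 and 49.5, then 66.8 and 59.2 CPM, and fell by 1.73 ± 0.06 before it rose by 0.32. Elovl6, a fatty acid elongase, rose by 2.27 ± 0.12 with GM-CSF and fell by 0.86 ± 0.11 with DON. Tmem97, a sterol-regulated membrane protein that binds NPC1, had 43.2 and 41.1, then 46.4 and 48.9, then 30.7 and 29.1 CPM, a rise of 0.18 and a fall of 0.67.

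Of 10 genes for the SREBP proteases and sterol-regulated protein degradation, 2 rose and 5 fell with GM-CSF (median -0.12), and 1 rose and 1 fell with DON (median 0.02), where 56.8% and 57.6% of all genes were called. Mbtps2, the site-2 protease that frees SREBPs, had 50.2 and 51.5, then 34.3 and 36.4, then 42.7 and 44.4 CPM (-0.53 and 0.30, both called). Rnf145, a ubiquitin ligase of sterol control, moved the opposite way, with 42.5 and 44.1, then 55.9 and 66.8, then 48.0 and 49.5 CPM (0.50 and -0.33, both called). Aup1, Ube2g2 and Rnf139, which serve endoplasmic reticulum degradation, fell by 0.37, 0.39 and 0.25 with GM-CSF, and with DON differed by 0.08, -0.11 and 0.16, none of them called.

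Of 9 tested LXR partners and further LXR targets, 6 fell and 1 rose with GM-CSF (median -0.76), and 5 rose and 2 fell with DON (median 0.46). Pltp, the phospholipid transfer protein, had 124 and 112, then 12.3 and 13.3, then 22.9 and 25.4 CPM. It was lowest with GM-CSF alone and higher with DON, though far from its unstimulated level: it fell by 3.21 ± 0.08 and rose by 0.92 ± 0.09 (edgeR adjusted p = 8.95e-10 and 1.09e-05). Smpdl3a, a phosphodiesterase induced by LXR, had 294 and 303, then 116 and 115, then 228 and 226 CPM (-1.37 and 0.97, both called). Mertk, a receptor for apoptotic cells, had 231 and 217, then 126 and 139, then 204 and 210 CPM (-0.76 and 0.64, both called), and Rxrb, a partner receptor of LXR, differed by -0.58 and 0.79, both called. These genes were lower with GM-CSF than without, and higher with DON than with GM-CSF alone, like Mylip and Nr1h2 and unlike Abcg1.

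Of 20 tested genes for lipoprotein uptake, ester hydrolysis, oxysterols and sterol transfer, 5 rose and 11 fell with GM-CSF (median -0.27; 27.5% and 29.3% of all genes), and 11 rose and 4 fell with DON (median 0.41). Ch25h, which makes the oxysterol 25-hydroxycholesterol, had 64.7 and 63.1, then 283 and 266, then 237 and 230 CPM. It was high in all 4 libraries with GM-CSF, rising by 2.10 ± 0.05 (edgeR adjusted p = 6.52e-10) and falling by 0.23 with DON (adjusted p = 0.00157). Lipa, the acid lipase that frees cholesterol in lysosomes, had 3730 and 3634, then 1951 and 1936, then 2655 and 2602 CPM. Nceh1, which hydrolyses stored esters, had 551 and 546, then 302 and 310, then 399 in both. Lipa and Nceh1 fell with GM-CSF (-0.92 and -0.84) and rose with DON (0.44 and 0.38), as Npc2 and Soat1 did.

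Scarb1, the HDL receptor SR-BI, had 178 and 169, then 118 and 119, then 63.9 and 61.3 CPM, falling by 0.54 and then 0.93. Msr1, the scavenger receptor for modified lipoprotein, had 177 and 178, then 299.6 and 315, then 182 and 184 CPM, so that its rise of 0.79 was followed by a fall of 0.75. Hsd3b7, a bile acid enzyme that clears oxysterols, had 84.8 and 85.4, then 81.9 and 81.2, then 142 and 137 CPM, high with DON only (0.78, called, after an uncalled -0.06). Outside the rule for named genes, and chosen after their values were seen, Soat2, the other sterol acyltransferase, had 0.892 and 0.862, then 2.76 and 2.45, then 7.90 and 8.94 CPM, rising by 1.57 ± 0.20 and 1.69 ± 0.15 (edgeR adjusted p = 8.29e-05 and 7.37e-06). Cyp27a1, which makes 27-hydroxycholesterol, was chosen in the same way and had 6.27 and 6.54, then 1.26 and 1.11, then 3.99 and 4.64 CPM (-2.43 ± 0.17 and 1.86 ± 0.18, both called).

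Scaled by total counts, where 4587 of all 12340 genes were higher and 2689 lower with GM-CSF, 4 of these lists gave other counts in that comparison: 8 isoprenoid genes rose, 5 further SREBP targets rose and 6 fell, 3 protease and degradation genes rose and 3 fell, and 7 uptake genes rose and 11 fell. The LXR partner list stayed at 6 lower and 1 higher.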

How the data were processed

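RNA from 6 libraries of mouse alveolar macrophages was sequenced as paired ends, per the labels' protocols. The authors deposited a table of read counts per gene and a table of FPKM per gene. The submitters' processing notes name mm10, STAR 2.6.0a, Subread 1.4.6 with featureCounts, and DESeq2 1.28.1, without their roles; the annotation, strand setting and any filters were not given in the sources used here. If reads were counted without strand, reads over bases shared by overlapping genes may have been counted for either gene, for both or for neither.

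The counts were tested as deposited, in R 4.3.3 with edgeR 4.0.16: filterByExpr with a minimum count of 10 (12340 of 16840 genes kept), TMM scaling, and a two-sided quasi-likelihood test in 1 model of 3 groups (3 residual degrees of freedom, prior 6.74, common biological coefficient of variation 0.0501). P-values were adjusted by Benjamini-Hochberg over all genes tested and called under 0.05. The procedure was tested on simulated data. CPM are counts scaled to TMM-adjusted library sizes. Library depth was 28321986 to 35196387 counts. Counting error weighs more on members with few counts. Pmvk had 230 to 549 per library, Tm7sf2 had fewer still, and so did Hsd17b7 in both groups with GM-CSF. The spread behind each test was estimated from all 3 groups of 2 libraries and drew also on the other genes. Replicate libraries differed beyond counting noise (chi-square per degree of freedom 4.59 to 8.68). Group means are given with the SD over 2 libraries.

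Alternatives were DESeq2 1.42.0, DESeq2 size factors, total counts without TMM, no filter, only the 2 groups compared, a replicate block, limma 3.58.1 on log2(FPKM + 1) and log2(FPKM + 0.1), and leaving out each library. FPKM carry a length term that CPM do not, and were used for levels between genes.

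The members and lists were chosen with earlier results of these data known. All members are described; of each further list, the genes named are those with the 3 smallest adjusted p in each of the first 2 comparisons, plus 2 that are marked as chosen after their values were seen. Gene coordinates and exon overlaps come from GENCODE M21 (GRCm38), and promoter sequences from RefSeq (GRCm38.p6); Abcg1, Fdft1, Fdps, Npc1, Sqle and Stard4 had no window in the table used. No sequence stretch shown overlaps a GENCODE exon. The result of 1 further marker list is not reported here.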

Additional observations from a re-analysis of the deposited data

How the results depend on the processing

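Over 14 alternative settings, the counts of members called higher and lower and of all genes called stayed within 1.5 times the reported counts, except that total counts without TMM called 5 members higher in place of 2 for DON-treated against unstimulated cells (the third comparison). Counts of members called lower with GM-CSF were 28 in the reported analysis, 26 with DESeq2 and 21 with total counts; leaving out single libraries gave 24 to 28 with GM-CSF, 14 to 17 with DON and 23 to 24 in the third comparison, and 2 to 3, 8 to 9 and 2 to 3 higher. Of 99 member results (33 genes in 3 comparisons), 26 changed side or sign under some setting.

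Every sign change concerned a difference that was not called in the reported analysis. Total counts gave Abca1 0.046 and Insig2 0.049 with GM-CSF, and Scap 0.031 and Soat1 0.065 in the third comparison. FPKM gave Insig2 -0.26 for DON and -0.52 in the third comparison with a pseudocount of 1, and -0.28 and -0.56 with 0.1. Leaving out single libraries gave ranges across 0 for GM-CSF in Abca1 (-0.28 to 0.17), Insig2 (-0.15 to 0.0073) and Mvd (-0.0065 to 0.17), for DON in Lss (-0.21 to 0.027), Nr1h3 (-0.23 to 0.017), Sc4mol (-0.024 to 0.17) and Tm7sf2 (-0.16 to 0.48), and in the third comparison in Mylip (-0.0044 to 0.096). The cause of these shifts was not tested.

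Leaving out 1 library lost these calls with GM-CSF: Mvk without either unstimulated library or the first GM-CSF library (adjusted p = 0.0567, 0.0825 and 0.186), Pmvk without the first unstimulated or either GM-CSF library (0.0594, 0.0570 and 0.0520), Npc1 without the first unstimulated or second GM-CSF library (0.0514 and 0.0574), and Srebf1 and Lpcat3 without the first GM-CSF library (0.0785 and 0.0538). With DON it lost Mvk without the second GM-CSF or second DON library (log2 fold changes -0.20 and -0.23). It also lost Nsdhl without the first GM-CSF or second DON library (-0.20 and -0.22). Without the second DON library, Acat2 was lost (-0.27) and Insig2 was called higher (0.29). A group left with 1 library was assumed to vary like the others.

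With the replicate number as a block, 6708 genes were called with GM-CSF, 6882 with DON and 6542 in the third comparison, against 7014, 7111 and 6859 without it, and no member's call changed. Replicate differences correlated at -0.05, -0.30 and 0.06 between pairs of groups over 8164 genes. With a single difference per group, these values cannot decide whether equal numbers mark paired libraries, and the sources do not say.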
